A study of Drosophila melanogaster with 6 samples.

Results

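The genes described here encode the proteins of the cytosolic ribosome, except RpLP0-like and RpL24-like, which are related genes. They were chosen by a rule on the name. It took every row of the authors' deposited table whose gene name begins with RpL or RpS and a number, or RpLP and a number. The rule found 84 of 7762 genes. By name, 47 were counted to the large subunit (RpL), RpLP0-like and RpL24-like among them, and 34 to the small subunit (RpS). The other 3 were the stalk genes RpLP0, RpLP1 and RpLP2. RNA came from haltere imaginal discs (3 samples) and wing imaginal discs (3 samples) of third-instar wandering larvae of the Canton S strain, labelled wild type in both tissues. Imaginal discs are the larval epithelia from which adult appendages form. The values are the authors' own edgeR comparison of the tissues, in which each gene has a log2 fold change, a p-value, an FDR (the adjusted p-value) and a mean level over both tissues in log2 CPM, that is read counts scaled to a common total. No value of a single sample was analysed here, which leaves the depth of the libraries and the spread between replicates unknown.

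The ribosome reads messenger RNA in its small subunit and joins amino acids in its large subunit. Each ribosome carries about 1 copy of most of these proteins, and the stalk, which recruits the elongation factors, is built on RpLP0 with pairs of RpLP1 and RpLP2. In the fly, loss of 1 copy of many of these genes gives the Minute phenotype, with slow development and short bristles, and Minute cells in a mosaic wing disc are removed by faster growing neighbours. Growth of imaginal discs draws on ribosome production, which is under the control of Myc and of the Tor kinase.

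The direction of the fold change is not stated in the authors' deposited table. Ubx, the homeotic gene that marks the haltere disc, stood at -5.22 there (the authors' deposited table, edgeR FDR 2.98e-59). A negative value is therefore taken here to mean a higher level in the haltere disc, a positive value a lower one. This reading rests on Ubx. Antp, which marks the second thoracic segment and so the wing disc, had the opposite sign in the authors' deposited table, at 2.08 (edgeR FDR 3.56e-10). Of 6 genes of disc identity, 3 were called, Ubx, Antp and Dll, and vg, nub and ap were not.

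No ribosomal protein gene differed between the tissues past the authors' threshold. At an FDR under 0.05 (edgeR, Benjamini-Hochberg), 0 of the 84 genes were called in the authors' deposited table, where 1.34% of all genes were called, 0.876% with a negative and 0.464% with a positive value. At an unadjusted p-value under 0.05 (edgeR) the count was again 0 of 84, against 4.32% of all genes. Under 0.1 it was 2 of 84, against 6.13% of all genes. Other genes of high level and short span, described further below, had counts as low. Of these 86 genes 0 were called, 0 had a p-value under 0.05 and 3 had one under 0.1 (edgeR). Of the 615 longer genes of high level 6 were called, and 10 (1.63%) had a p-value under 0.05 (edgeR), also a lower share than the 4.32% of all genes. Of the 92 other genes between 9 and 12 log2 CPM, 0 were called and 1 (1.09%) had a p-value under 0.05 (edgeR). The absence of low p-values was therefore not particular to ribosomal protein genes.

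The values nevertheless lay mostly on one side of 0. By the authors' deposited table, 76 of the 84 had a positive log2 fold change, read as lower in the haltere disc, and 8 had a negative one, whereas 50.1% of all genes were positive. The median of the 84 was 0.14, with quartiles of 0.092 and 0.23, beside a median of 0.00047 with quartiles of -0.17 and 0.16 over all genes. Set against other genes of like level and gene span, which was possible for 79 of them, the median was smaller, at 0.051, with 50 positive and 29 negative. RpL21, RpLP2, RpL41, RpL39 and RpL37a, all positive, had too few such genes and were left out. The counts of 76 and 50 positive therefore do not cover the same genes. The sets of other genes held as few as 5 genes. They took in genes of translation too, such as Rack1, sta and the elongation factor gene Ef1gamma. By size, 6 genes had a log2 fold change above 0.3, 23 lay between 0.2 and 0.3, 30 between 0.1 and 0.2 and 17 between 0 and 0.1. A log2 value of 0.14 stands for a level 9.52% lower in the haltere disc. These are counts over genes measured in the same 6 libraries, which are not independent replicates, and no test of the list was made.

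**Figure D1:**
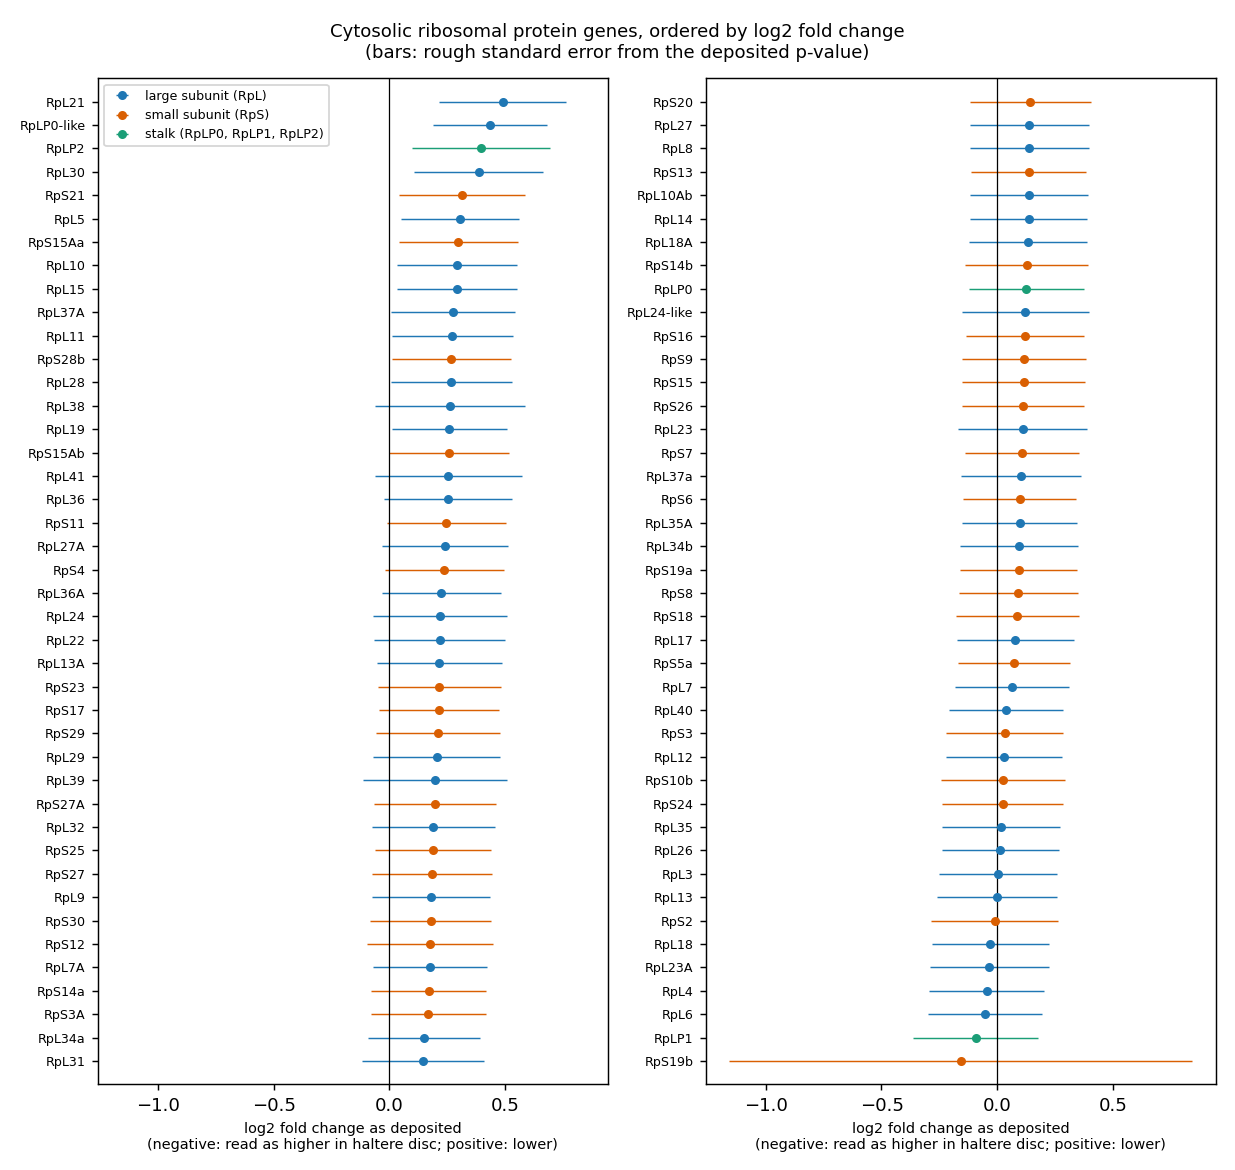
Log2 fold change of each of the 84 genes as deposited (horizontal axis, log2 units; negative values are read as higher in the haltere disc), ordered from the most positive at the top left to the most negative at the bottom right. Points are coloured by subunit and bars show 1 rough standard error on each side; 76 points lie to the right of 0, and the wide bar at the bottom right is RpS19b.

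The error behind a single value was wider than the spread of the genes. A rough standard error was obtained by dividing the size of each log2 fold change by the normal quantile of its deposited p-value. Its median was 0.26 over the 84 genes, and it ran from 0.24 for RpS5a to 0.33 for RpL38, with RpS19b far above the others. After these 2 genes the widest errors belonged to RpL41, RpL39 and RpLP2, at 0.32, 0.31 and 0.30. The SD of the log2 fold changes among the 84 genes was 0.12. An approximate 95% interval around each value included 0 for all 84 genes. For 82 genes the interval lay within 1 of 0 on the log2 scale, that is within a 2-fold difference either way, and the other two were RpL21, with an upper bound of 1.03, and RpS19b, with bounds of -2.12 and 1.81. The p-values thus leave room for modest differences in either tissue and do not show equal levels.

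The genes with the most positive values came from both subunits. RpL21, a large subunit protein (2L:22247111-22247875 on the minus strand, dm6), stood highest in the authors' deposited table, at 0.49 (edgeR p = 0.0743, FDR 1). RpLP0-like followed in the authors' deposited table at 0.44 (edgeR p = 0.0787), then RpLP2 of the stalk at 0.40 (edgeR p = 0.182). The authors' deposited table gave RpL30 0.39 (edgeR p = 0.166) and RpS21 0.31 (edgeR p = 0.249). All of these are read as lower in the haltere disc, and none passed the threshold.

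The negative values, read as higher in the haltere disc, were smaller in size. RpS19b had -0.16 in the authors' deposited table, where its level ranked 7579 of 7762 genes. RpLP1 was at -0.09 (edgeR p = 0.731), RpL6 at -0.05, RpL4 at -0.04 and RpL23A at -0.03 in the authors' deposited table. RpL18, RpS2 and RpL13 completed the 8, at -0.03, -0.01 and -0.0017 in the authors' deposited table.

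The subunits had similar values. From the authors' deposited table, the median was 0.15 on the log2 scale for the 47 large subunit genes, of which 42 were positive, and 0.14 for the 34 small subunit genes, of which 32 were positive. Within the stalk, RpLP2 at 0.40 and RpLP1 at -0.09 differed by 0.49 in the authors' deposited table, although their proteins act as a pair. Their rough standard errors were 0.30 and 0.27, and the difference was not tested. RpLP0, the base of the stalk, was at 0.13 in the authors' deposited table.

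Ribosomal proteins with a further role were spread over the same range. RpS6, the substrate of the S6 kinase, was at 0.10 in the authors' deposited table, and RpL5 and RpL11, which bind 5S ribosomal RNA, were at 0.30 and 0.27. RpS27A and RpL40, made as fusions with ubiquitin, were at 0.20 and 0.04 in the authors' deposited table. RpL22, which carries a histone H1-like extension in flies, was at 0.22. Of 12 genes used in studies of Minute cells and cell competition, all 12 were positive in the authors' deposited table. They ran from 0.03 for RpS3 to 0.26 for RpL38, with a median of 0.19. RpS12, which is needed for the removal of Minute cells, was at 0.18 in the authors' deposited table. The smallest p-value among the 12 was 0.292, for RpL19 (edgeR). RACK1 and the small subunit protein of the gene sta, which the naming rule leaves out, were at -0.0072 and 0.0063 in the authors' deposited table.

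Ribosomal protein transcripts were among the most abundant in the discs. Of the 100 genes with the highest mean level in the authors' deposited table, 64 were ribosomal protein genes. The median level of the 84 genes was 10.31 log2 CPM, against 4.39 over all genes. When levels were turned back to CPM and summed, the 84 genes held 19.2% of the total over all genes. RpL5, RpS3A and RpL41 were the highest, at 11.59, 11.39 and 11.34 log2 CPM in the authors' deposited table. The lowest were RpS19b at 0.31, RpLP0-like at 5.85 and RpS15Ab at 6.05 log2 CPM in the authors' deposited table.

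**Figure D2:**
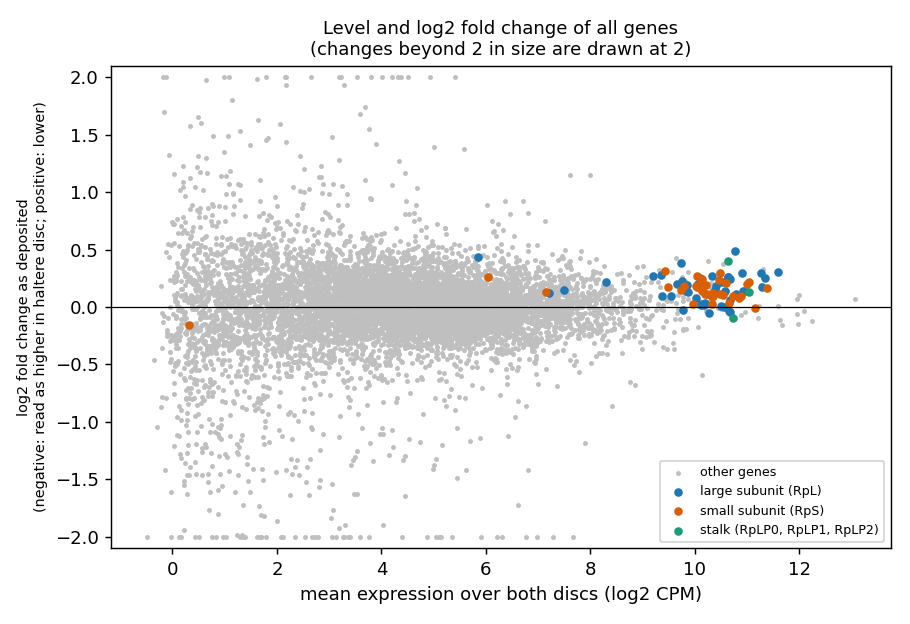
Mean level over both discs (horizontal axis, log2 CPM) against log2 fold change as deposited (vertical axis, negative values read as higher in the haltere disc) for all 7762 genes, with values beyond 2 in size drawn at 2. Ribosomal protein genes are coloured by subunit and other genes are grey; 77 of the 84 lie between 9 and 12 log2 CPM, most of them just above 0.

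Levels of different genes were compared per kilobase of exon, with exon lengths from the Ensembl annotation. The lower expressed gene of each of the 6 families with both genes in the table was set aside. Among the other 78 genes the quartiles were 10.08 and 10.88 log2 CPM per kilobase (77 had an exon length), and the SD was 0.70. RpL41, whose exons cover 320 bases, stood highest at 12.99 log2 CPM per kilobase. RpL22 was lowest at 8.16 log2 CPM per kilobase, followed by RpL28 at 8.73. The median over all genes was 3.15 log2 CPM per kilobase.

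Several ribosomal proteins are encoded by a pair of related genes, 1 of which is often used in the germline. Of the 13 pairs examined, 6 had both genes in the table and 6 had 1 gene; the names of the thirteenth, RpL37-1 and RpL37-2, were not matched to a row. RpS19b, a gene known for expression in the germline, had 0.90 log2 CPM per kilobase, against 10.03 for RpS19a, a ratio of RpS19a to RpS19b of 559. RpS15Ab was at 6.51 and RpS15Aa at 10.56 log2 CPM per kilobase. RpS14b was at 7.90 and RpS14a at 9.67 log2 CPM per kilobase, and RpL34a was at 8.18 and RpL34b at 9.66. RpS14a and RpS14b stand in tandem on the X chromosome (X:7933742-7934677 and X:7934898-7935792, dm6, both on the plus strand), and reads shared by such near copies may have been split or dropped in counting, so these ratios are uncertain.

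The genes named RpLP0-like and RpL24-like are related to ribosomal proteins, but their yeast counterparts are ribosome assembly factors that hold the place of the ribosomal protein in the immature subunit. RpLP0-like was at 5.93 log2 CPM per kilobase, and RpLP0 at 10.63. RpL24-like was at 7.57 and RpL24 at 9.79 log2 CPM per kilobase. The log2 fold change of RpLP0-like exceeded that of RpLP0 by 0.31 in the authors' deposited table, more than any other pair differed in this direction. RpL24-like and RpL24 were at 0.12 and 0.22 in the authors' deposited table. In the remaining pairs the 2 genes differed by 0.06 or less in log2 fold change, except RpS19b and RpS19a, whose difference of -0.25 rests on the poorly measured RpS19b. None of these differences was tested.

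**Figure D3:**
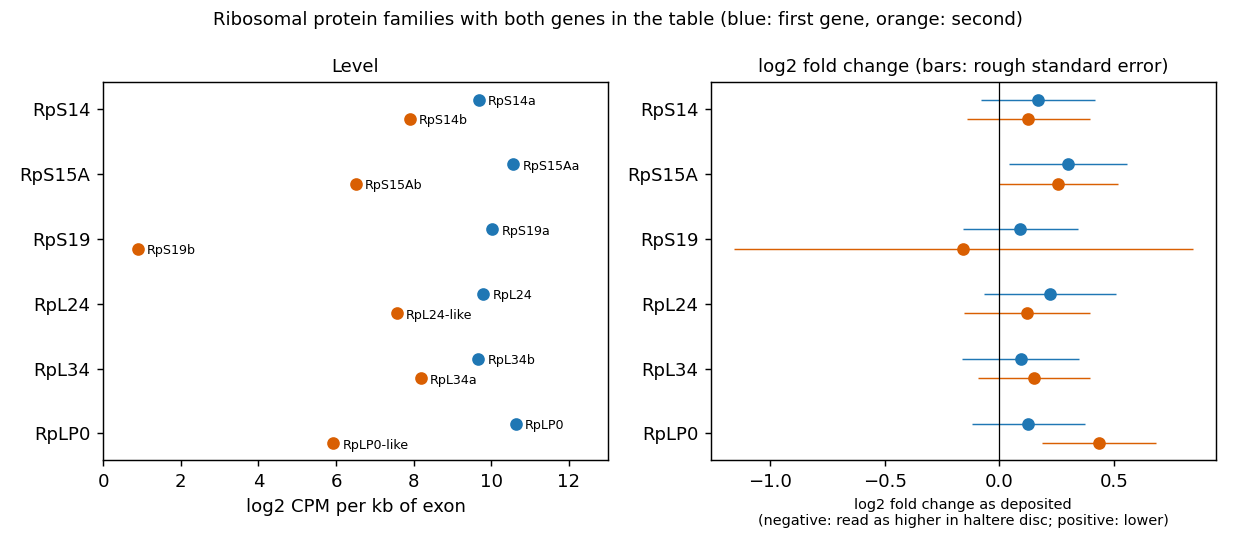
The 6 families with both genes in the table: level per kilobase of exon (left, log2 CPM per kilobase) and log2 fold change as deposited with 1 rough standard error on each side (right, negative values read as higher in the haltere disc). The second gene of each family (orange) has the lower level, from 0.90 for RpS19b to 8.18 for RpL34a, while the log2 fold changes of a family overlap within their errors.

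Of the annotated names that fit the rule, 9 had no row of the same name, and the genes RpL10Aa, RpL22-like, RpL7-like, RpS5b, RpS10a, RpS28a and RpS28-like were not analysed here. For the rows present, 83 of 84 matched the annotation. The exception was RpL37a, an older name that could not be tied to a single gene. It was at 0.10 in the authors' deposited table.

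The ribosomal protein genes are short. Their median gene span was 1356 bases, against 2965 bases over all genes, and span itself went with the fold change outside the ribosome. Among other genes of at least 7 log2 CPM, the 86 that span 2000 bases or less had a median log2 fold change of 0.11, by the authors' deposited table, and 66 were positive. The 615 longer ones had a median of -0.01, with 294 positive. The 86 were not matched on level, with a median of 7.53 log2 CPM against 10.31 for the ribosomal protein genes. Between 9 and 12 log2 CPM, the 92 other genes had a median log2 fold change of 0.015, with 49 positive. Their median span was 4869 bases. The 77 ribosomal protein genes at that level had a median of 0.14, with 70 positive. The 67 ribosomal protein genes that span 2000 bases or less had a median of 0.14, with 61 positive, and the 16 longer ones a median of 0.15, with 14 positive. The smaller median of 0.051 given above came from setting each ribosomal protein gene against the median of other genes within 1 log2 unit of both its level and its span. The part of gene span in the common sign was not tested. Within the 83 genes with a known span, Spearman's rho between span and log2 fold change was -0.117, a description across genes of the same libraries.

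The genes were spread over the genome. Of the 83 with a known place, there were 19 on 2R, 19 on 3R, 17 on 2L, 14 on 3L, 13 on X and 1 on chromosome 4, which was RpS3A. Median log2 fold changes by arm were 0.20 on 2R, 0.12 on 3R, 0.20 on 2L, 0.14 on 3L and 0.13 on X in the authors' deposited table, and all 13 genes on X and all 19 on 2R were positive. In introns or elsewhere within their span, 28 of the genes carried small nucleolar RNA genes on the same strand, 74 in all of the 269 annotated, and RpS5a carried 14. The median log2 fold change was 0.17 for these 28 genes and 0.14 for the other 56. On the opposite strand 21 genes overlapped a protein-coding gene, among them RpL12 and RpL39, which overlap each other, and RpS27A overlapped one on its own strand. Whether counting used the strand is not given in the sources used here, so reads of such overlapping genes cannot be separated with certainty.

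Genes that make or use ribosomes were then described as 6 lists of 92 genes in all. Of 24 genes listed under ribosome assembly, 22 were positive in the authors' deposited table, with a median of 0.33. At an FDR under 0.05, 0 were called, and 3 had a p-value under 0.05 (edgeR). In the authors' deposited table NHP2, a protein of the small nucleolar particles that modify ribosomal RNA, was at 0.74 (edgeR p = 0.00431, FDR 0.223). Ns1, a nucleostemin GTPase of the nucleolus, was at 0.65 (edgeR FDR 0.238) and the helicase gene pit at 0.54 (edgeR FDR 0.782) in the authors' deposited table. The negative ones were Non1 at -0.10 and Nat1 at -0.02. Nat1 is an acetyltransferase subunit that was counted in this list, and its place in ribosome assembly is uncertain. All 10 measured genes of RNA polymerase I and its partners, which transcribe ribosomal RNA, were positive, with a median of 0.42 and none called in the authors' deposited table. The smallest p-value among them was 0.0342 (edgeR), for CG18600, the Polr1E subunit, at 0.52.

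Factors that act on the finished ribosome had smaller medians, a difference that was not tested, although single genes among them had larger values. Of 30 measured initiation factor genes 26 were positive in the authors' deposited table, with a median of 0.12 and none called. Thor, the inhibitor of the cap-binding protein eIF4E, was counted in this list and had the opposite sign in the authors' deposited table, at -1.24 (edgeR p = 0.00487, FDR 0.238). Of 10 elongation and release factors, 7 were positive, with a median of 0.16, and 1 was called. It was Ef1alpha100E, the second gene for elongation factor 1 alpha, at 2.67 in the authors' deposited table (edgeR FDR 5.2e-06), and so fell in the haltere disc relative to the wing disc. Its level was 3.54 log2 CPM, whereas the main gene Ef1alpha48D had 13.07 log2 CPM and a log2 fold change of 0.07 in the authors' deposited table. The 6 measured nascent chain factors were all positive, with a median of 0.20 and none called. The gene eIF-5A is in both the initiation and the elongation list.

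Regulators of growth and of the response to ribosome loss did not share the sign. Of 13 such genes 7 were positive and 6 negative in the authors' deposited table, with a median of 0.0050 and none called. They are long, with a median gene span of 6961 bases, and of the 615 longer genes of high level 294 were positive. The part of gene span was not tested. Myc, in the table as dm, was at 0.40 (edgeR p = 0.222), Tor at 0.02 and S6k at 0.0089, in the authors' deposited table. Xrp1, the transcription factor that rises in Minute cells, was at -0.04 in the authors' deposited table. Of 4 promoter factors linked to these genes, Tbp, Trf2, Dref and M1BP, 2 were positive and 2 negative, with none called and p-values of 0.488 or more (edgeR).

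The mitochondrial ribosome, a separate machine that translates the few messages of mitochondrial DNA, had values of the same sign. Its 72 genes showed, in the authors' deposited table, a median log2 fold change of 0.26 and 67 were positive, at a median level of 3.68 log2 CPM. None of the 72 had a p-value under 0.05 (edgeR). Whether the cytosolic and the mitochondrial genes differ in this was not tested.

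**Figure D4:**
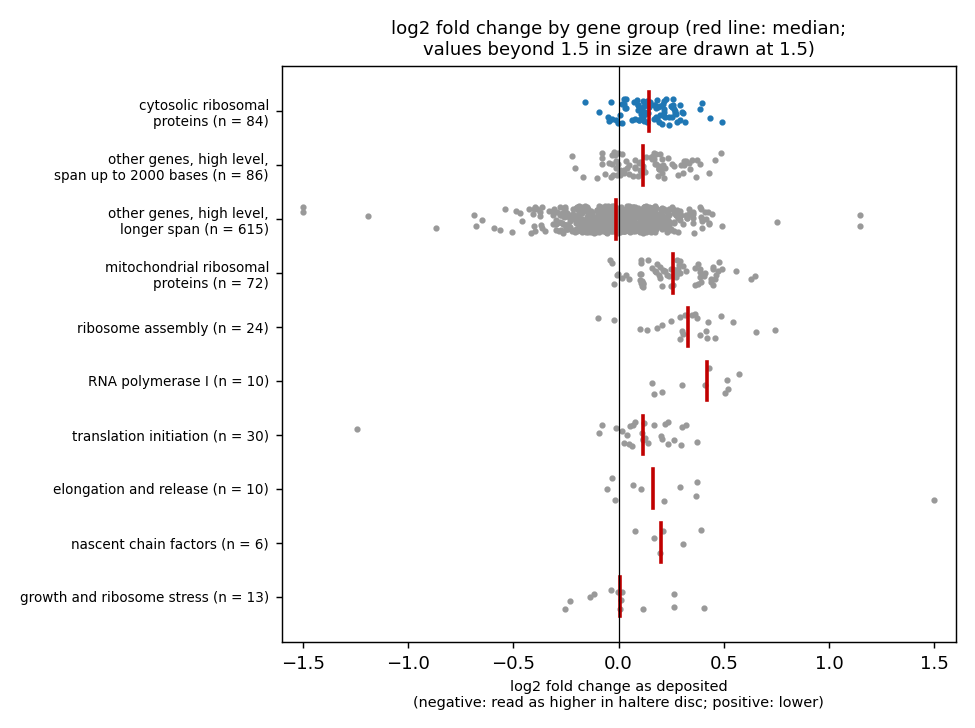
Log2 fold change as deposited (horizontal axis, negative values read as higher in the haltere disc) for the 84 ribosomal protein genes and for comparison groups; each point is 1 gene, the red line is the group's median, and values beyond 1.5 in size are drawn at 1.5. Medians run from 0.42 for RNA polymerase I and 0.33 for ribosome assembly, through 0.14 for the ribosomal proteins and 0.11 for other short genes of high level, to -0.01 for longer genes of high level.

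Most markers of larval fat body, muscle and salivary gland were higher in the haltere disc. In the authors' deposited table, 5 of 6 larval fat body markers, 6 of 8 muscle markers and 4 of 5 measured salivary gland markers were called (edgeR, FDR under 0.05), all negative and so higher in the haltere disc. Their median log2 fold changes were -4.30, -1.52 and -3.46. The 8 measured hemocyte markers were all negative with a median of -0.37 and none called, and their p-values were 0.288 or more (edgeR). The 4 tracheal markers had mixed signs in the authors' deposited table, with none called. The tracheal factor gene trh was at 1.03 (edgeR p = 0.00128, FDR 0.0859), read as lower in the haltere disc, and btl, verm and serp were at -0.76, -0.40 and -0.27 in the authors' deposited table. The summed mean level over both discs was 544, 206 and 86.8 CPM for all measured markers of these 3 lists, uncalled ones included. These sums cover a few genes and do not measure the RNA that each tissue adds. In bulk samples a lower share of cells of a type and less RNA per cell cannot be told apart, and the part of these tissues in the ribosomal values was not tested.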

How the data were processed

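The authors compared haltere discs (3 samples) with wing discs (3 samples) in edgeR. HISAT2, HTSeq, edgeR and the build dm6 are named by the submitters' processing notes, with no versions. Per the file headers, the authors deposited for each gene a log2 fold change, a mean level in log2 CPM, a p-value and an FDR. The deposited FDR equals a Benjamini-Hochberg value over all rows to within 6.24e-06. Of the rows, 5 are summary lines of the read counter, not genes, with 43.3% of the summed CPM; they were left out of every count but stayed in the authors' adjustment. The genes alone summed to 569411 CPM and not to the full scale, so the CPM scale includes reads of no gene. The library sizes used in the comparison may include them as well. The authors' line for reads with several alignments stood at 16.65 log2 CPM and a log2 fold change of 0.29 (edgeR p = 0.294).

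The planned count test needs values per sample, so the authors' FDR under 0.05 was used. The rough standard error assumes a normal test statistic, and intervals built from it are approximate. Columns of single samples that were set aside numbered 0. Gene names were matched to the Ensembl release 115 annotation (BDGP6.54, dm6 coordinates) by symbol or by a RefSeq synonym (Release 6) of a single gene, 7658 of 7762 (98.7%). Members and lists were chosen with earlier results of these data known. Members named are the 5 highest and lowest by log2 fold change, the 5 smallest p-values, the 3 highest and lowest levels, the gene pairs, the stalk and the Minute list, and from other lists the called genes and the smallest p-value; others were named after their values were seen. After its value of -0.26 had been seen, Ubi-p5E, which encodes polyubiquitin, was taken off the list of proteins outside the rule. A duplicate spelling of Max and the pair RpL28 and RpL28-like, whose second name matched no annotated gene, were dropped at the same stage. Promoter and protein sequences were not used here. Markers of testis (1 of 5 measured, betaTub85D, at -0.47) and of the male dosage complex (4 genes, median -0.07) had none called. Python 3.11.15, pandas 2.3.3, numpy 2.4.6, scipy 1.17.1 and matplotlib 3.10.9 were used.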

Additional observations from a re-analysis of the deposited data

How the results depend on the processing

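The count of ribosomal protein genes called stayed at 0 under an FDR of 0.01 or 0.1, a Bonferroni adjustment, no adjustment, a minimum log2 change of 1, a minimum of 1 log2 CPM, removal of the summary lines, recomputed Benjamini-Hochberg values, and with families left out or sta and Rack1 added. Without adjustment 6 of the 92 genes of the 6 lists had a p-value under 0.05, against 1 called, and 335 of all genes, against 104; under Bonferroni 50 of all genes remained. The median log2 fold change was 0.14 to 0.16 under 5 other choices. One of them, the addition of sta, Rack1 and Ubi-p5E, was chosen after seeing the data and gave 77 positive of 87. Centred on genes of like level and span, it was 0.051, with 50 positive of 79. No paired analysis was possible because the table holds no values per sample; DESeq2, filters on counts and leaving out a replicate were not run for the same reason. The depth is unknown, so whether it sets the error of 0.26 was not tested.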
